A study of Mus musculus with 4 samples.

Results

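DDX5 peaks were found at the starts of 4 genes of cell cycle and growth signalling in cultured undifferentiated spermatogonia, the cells that sustain sperm production. The genes were *Wee1*, *Dvl2*, *Mtdh* and *Mien1*. They were chosen by name, as the entries of the deposited peak list whose gene is one of these, and they account for 4 of its 101 peaks, 1 per gene. All 4 peaks covered the transcription start site (TSS) of their gene and held the E-box core CACGTG just upstream of it. Of the 101 peaks, 37 were centred within 1 kb of a TSS, the 4 included, and 97.3% of those held a core. Among 32 others of these that could be matched to the reference, 71.9% had a core within 150 bp upstream of the TSS. A core at this place was thus common at such peaks. *Wee1*, *Mtdh* and *Dvl2* stood close together in the upper part of the list, at ranks 13, 15 and 17 by peak score, and *Mien1* stood lower, at rank 41. Of the 136 other genes examined from cell cycle, Wnt and growth pathways, 0 had an assigned peak, and these included all 26 cyclin genes of the list used. As 0.419% of all protein-coding genes had an assigned peak, which would be 0.57 of 136 genes, a count of 0 was near the background.

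DDX5 is a DEAD-box RNA helicase that works in RNA processing and also as a partner of transcription factors on chromatin. Chromatin immunoprecipitation followed by sequencing (ChIP-seq) recovers the DNA that lies with the protein, and does not show what the protein does there or how it was recruited. DDX5 was precipitated in 2 ChIP libraries, and 2 input libraries came from chromatin before precipitation. Both groups were wildtype, untreated spermatogonia from CBA mice, taken from lines that were derived independently. The spermatogonia were grown on inactivated mouse embryonic fibroblasts, so that the dish also held cells of another type, whose part in the peaks was not tested. The list holds no expression values, so the identity of the cells could not be checked against marker genes.

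The peak score is the measure of a peak's strength that the authors' peak caller, HOMER, gives. It is pooled over both ChIP libraries, with no value per line. The spread between lines, the depth of each library and the number of reads behind a peak are therefore unknown, and no difference between scores was tested. All scores, ranks and distances below describe this single list.

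The 4 genes encode proteins with different known roles. WEE1 is a kinase that places an inhibitory phosphate on CDK1 and so delays entry into mitosis. DVL2 is a Dishevelled protein, which relays the Wnt signal from Frizzled receptors into the cell. MTDH (metadherin) is a membrane and nuclear protein known for promoting growth and invasion of tumour cells, and MIEN1 is a small membrane-anchored protein known for promoting cell migration, whose gene lies beside *Erbb2*. The E-box with core CACGTG is the binding sequence of basic helix-loop-helix factors such as MYC, USF and TFEB. The CLEAR element, through which TFEB binds lysosomal genes, contains this core.

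The sequences around the cores are shown for *Dvl2* and *Mien1*, as only these 2 of the 4 genes had an entry among the promoter sequences used. *Dvl2* had the most cores of the 4 genes, and the core of *Mien1* lay farthest from its peak centre. The sequences are RefSeq promoter sequences of the GRCm38.p6 build, which is the mm10 build of the peak list. The CACGTG cores are in capitals. The *Dvl2* sequence comprises the last 250 bases before the TSS, at chr11:70000342-70000591 on the plus strand. The *Mien1* sequence comprises 30 bases around its core, at chr11:98438987-98439016 on the minus strand, and includes the TSS.
Dvl2: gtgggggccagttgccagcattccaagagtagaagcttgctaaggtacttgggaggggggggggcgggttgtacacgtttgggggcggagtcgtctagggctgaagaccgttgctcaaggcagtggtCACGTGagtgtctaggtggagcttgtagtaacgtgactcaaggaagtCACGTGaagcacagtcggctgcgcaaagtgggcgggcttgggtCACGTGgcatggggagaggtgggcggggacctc
Mien1: ggacacgcccccCACGTGactttggcgtgg

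*Wee1* had the highest score of the 4 genes, 15.15, which was 2.18 times the median score of the list of 6.94. Its peak lay at chr7:110121586-110122584, was 999 bp long and was assigned by HOMER to the promoter class. The listed distance of its centre from the TSS was 26 bp downstream, and in the reference the TSS of transcript NM_009516.3 is at 110122059 on the plus strand. The peak thus lay almost evenly on both sides of the start, with 473 bp upstream, 291 bp in the 5′ UTR and 235 bp in the coding part of exon 1 of 11. Within the 31 promoter peaks of the list, 8 had a higher score, 6 had their centre closer to the TSS and 2 were longer. GC content was 69.6%, and 6 promoter peaks had more.

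No other gene of the annotation reached into the *Wee1* peak. The nearest gene on the left was *Zfp143*, a zinc finger factor, which ended 26.2 kb before the peak, and on the right *Swap70* began 99.1 kb after it. The nearest other DDX5 peak on chromosome 7 was 16.5 Mb away and was assigned to *Cln3*. The peaks most like that of *Wee1* by score were *Efna3* (16) and *Fam21* (15.35) above it and *Snx8* (15) and *Mtdh* below it. Of these, *Efna3* and *Snx8* were intron peaks, while *Fam21* and *Mtdh* were promoter peaks.

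*Dvl2* had a score of 13.855, below those of *Wee1* and *Mtdh*. Its promoter peak lay at chr11:70000069-70001058 and was 990 bp long. The list places the centre 63 bp upstream of the TSS, and the reference TSS of NM_007888.4 at 70000592 on the plus strand puts it 28.5 bp upstream. With 523 bp upstream, 241 bp in the 5′ UTR, 194 bp in the coding part of exon 1 of 15 and 32 bp in the first intron, this peak reached slightly more into upstream than into transcribed sequence (52.8% upstream). Of the 31 promoter peaks, 11 had a higher score and 3 were longer, and 25 had a higher GC content than the 59.6% of *Dvl2*.

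The *Dvl2* peak lies in a gene-dense stretch. *Phf23*, which encodes a PHD finger protein, runs in the same direction and ended 57 bp before the peak, and its own TSS was 4.8 kb from the peak centre. *Gabarap*, a gene of the autophagy machinery, lies before *Phf23* and has its TSS 9.19 kb from the centre. On the other side, *Acadvl* is transcribed towards *Dvl2* and ended 9.12 kb after the peak. No TSS other than that of *Dvl2* was inside the peak. By score, its neighbours were *Mtdh* and *Amdhd2* (14.05) above and *Tmem55b* (13.48) and *Ankrd12* (13.3) below, which are all promoter peaks.

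*Mtdh* had a score of 14.25, between those of *Wee1* and *Dvl2*. Its promoter peak lay at chr15:34082351-34083119 and was 769 bp long. This was the most closely centred of the 4 peaks, with a listed distance of 16 bp downstream of the TSS of NM_026002.5, at 34082719 on the plus strand. Only 4 of the 31 promoter peaks had their centre closer to a TSS. The peak held 368 bp of upstream sequence, 317 bp of the 5′ UTR and 84 bp of the coding part of exon 1 of 12, with a GC content of 68.9%. As the peak was shorter than those of *Wee1* and *Dvl2*, its score per kb was the highest of the 4 genes, 18.5 against 15.2 and 13.99, which placed it at rank 9 of 101.

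A predicted gene on the opposite strand, *Gm41291*, runs across the whole *Mtdh* peak, with its start outside the peak. ChIP-seq has no strand, so this annotation and *Mtdh* share the same signal. The next curated genes were far away, *Tspyl5* with its start 394 kb before the peak and *Laptm4b* with its start 155 kb after it. The nearest other DDX5 peak on chromosome 15 was 3.26 Mb away.

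*Mien1* differed from the other 3 genes in score and position. Its score was 8.185, 1.18 times the median of the list, and 31 of the 37 peaks centred within 1 kb of a TSS had a higher score. The peak lay at chr11:98438372-98439141 and was 770 bp long. HOMER named it by its centre as intron 1 of 3 of NM_025559, at a listed distance of 232 bp downstream of the TSS. The gene is on the minus strand with its TSS at 98438988, and the peak held this TSS, 153 bp of upstream sequence (19.9%), all of exon 1 and all of exon 2. In all, 42 bp lay in the 5′ UTR, 187 bp in coding sequence and 388 bp in introns. Among the 37 peaks within 1 kb of a TSS, 5 had their centre farther away than *Mien1*.

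Of 40 intron peaks in the list, 8 had a higher score than *Mien1*. The neighbours by score were *Tbc1d13* (8.4) and *Ccdc9* (8.265) above, both promoter peaks, and *Vapa* (8.005, in a 5′ UTR) and *Mir6412* (7.86, in an intron) below. *Erbb2*, the receptor tyrosine kinase gene whose end faces that of *Mien1*, ended 655 bp before the left edge of the peak. Its TSS was 26.3 kb from the peak centre and had no peak. *Grb7*, which encodes an adaptor of receptor tyrosine kinases, began 7.69 kb beyond the other edge and had none either.

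**Figure D1:**
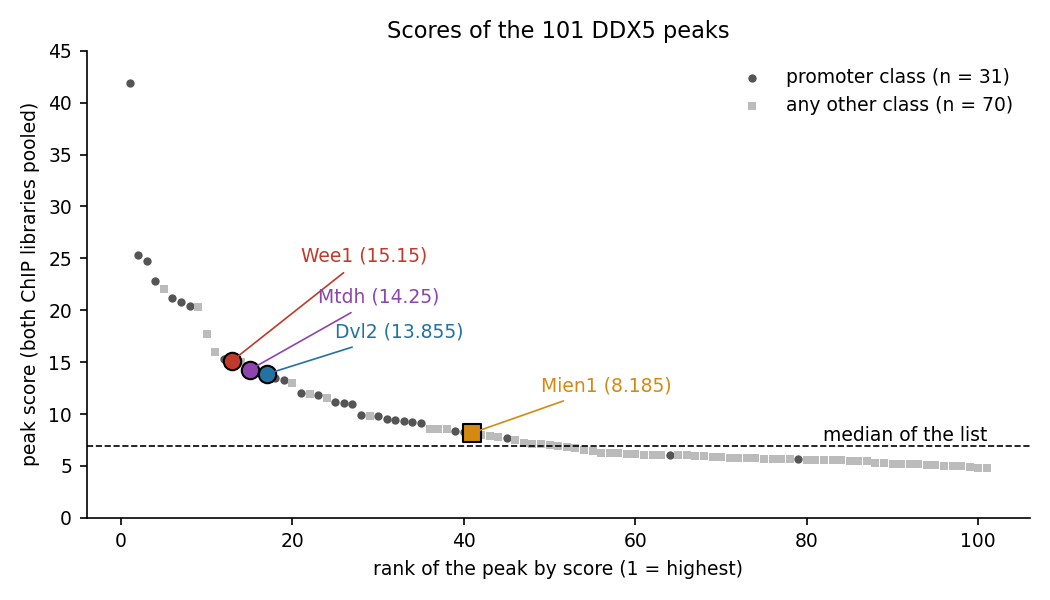
Scores of the 101 DDX5 peaks (y axis, score pooled over both ChIP libraries) by rank (x axis), with promoter peaks as dark circles and other peaks as light squares. *Wee1* (15.15), *Mtdh* (14.25) and *Dvl2* (13.855) lie at ranks 13, 15 and 17 in the upper part of the curve, and *Mien1* (8.185) lies just above the median of 6.94, drawn as a dashed line.

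Promoter peaks made up 3 of the 4 genes' peaks (95% Wilson interval from 30.1% to 95.4%, for counting error only) and 30.7% of the whole list, so 4 peaks are too few to place this share. A score of at least 10 was reached by *Wee1*, *Mtdh* and *Dvl2*, against 26.7% of all peaks. It was reached by 19 of the 31 promoter peaks (61.3%) and by 22 of the 37 peaks within 1 kb of a TSS (59.5%), the peaks most like these in position. When peaks were counted by their interval and not by their centre, all 4 peaks were at the start of their gene. The share of all peaks under this rule is not given here. By centres within 1 kb of a TSS, 37 of all 101 peaks were at a gene start, the 4 included.

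**Figure D2:**
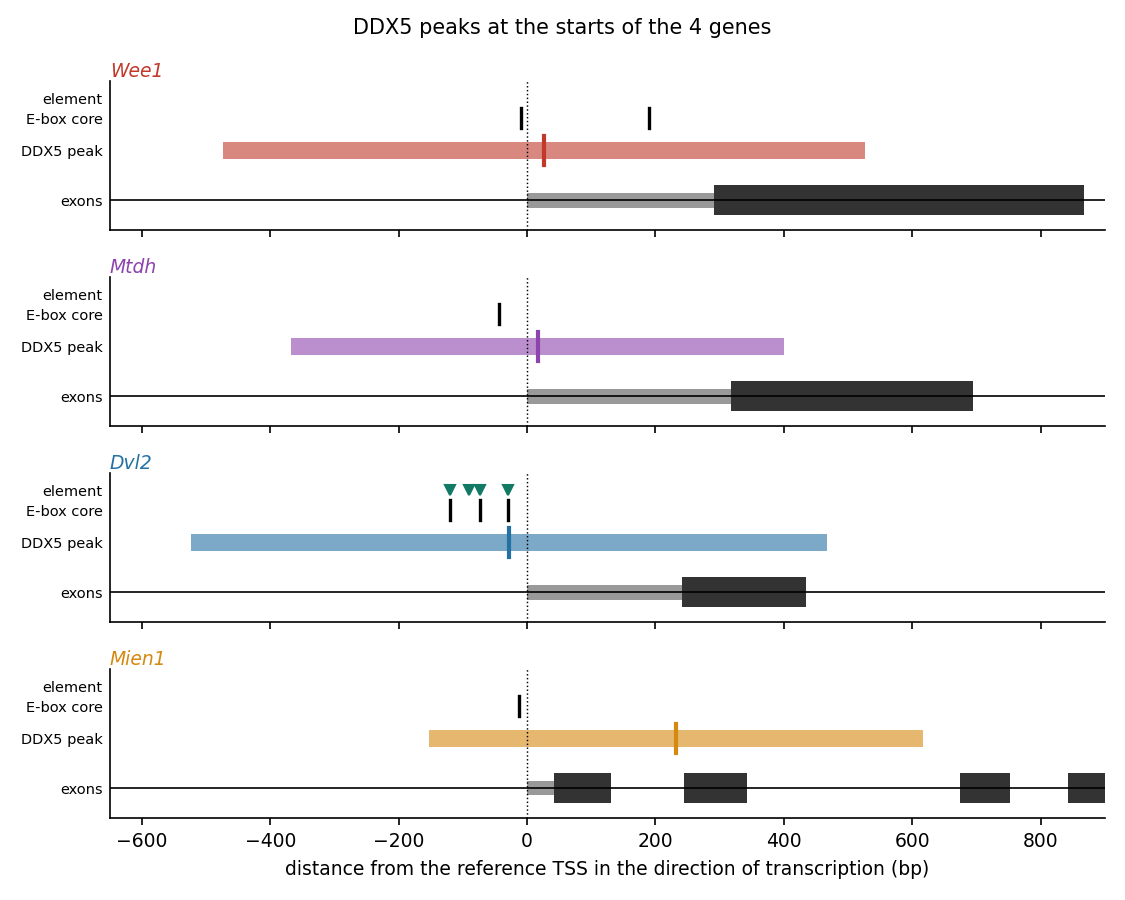
Positions of the DDX5 peaks (coloured bars, with the centre as a vertical line), E-box cores (black ticks) and CLEAR elements with at most 1 mismatch (triangles) relative to the reference TSS in bp, in the direction of transcription, above the exons (grey, coding parts dark). The first core upstream of the TSS lies 8 bp away in *Wee1*, 41 bp in *Mtdh*, 28 bp in *Dvl2* and 11 bp in *Mien1*, and the *Mien1* peak is shifted into the gene.

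E-box cores were counted in the reference sequence of each peak. CACGTG reads the same on both strands, so each core counts once. The *Wee1* peak held 2 cores, that of *Mtdh* 1, that of *Dvl2* 3 and that of *Mien1* 1. A core was present in 49.5% of all peaks, but in 97.3% of the 37 peaks within 1 kb of a TSS, so the presence of a core in all 4 peaks was near the background for peaks at gene starts. Of the 7 cores, 6 lay upstream of the TSS and the second core of *Wee1* lay in the 5′ UTR, 187 bp after the TSS. The nearest upstream core ended 8 bp before the TSS at *Wee1* (core at 110122046-110122051), 41 bp at *Mtdh* (34082673-34082678), 28 bp at *Dvl2* and 11 bp at *Mien1* (98438999-98439004).

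Of 32 other peaks within 1 kb of a TSS that could be matched to the reference, 23 (71.9%) had a core whose middle was within 150 bp upstream of the TSS, against all 4 of the genes described here. In those 32 peaks, 58 of 82 cores (70.7%) lay upstream of the TSS. The distance of a core from the peak centre differed among the 4 genes. The middle of the nearest core was 2 bp from the centre at *Dvl2*, 36.5 bp at *Wee1*, 59.5 bp at *Mtdh* and 245 bp at *Mien1*. The *Mien1* core was therefore outside the central 200 bp of its peak, although among the 4 genes only the first core of *Wee1* was closer to a TSS.

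The bases beside the cores were alike. In all 6 upstream cores, a T stood before the core on at least one strand (TCACGTG), and in the downstream core of *Wee1* on neither. Over the other peaks within 1 kb of a TSS, 74 of 82 cores (90.2%) had this T. Both flanks had it in 2 of the 7 cores, the first and second of *Dvl2*, and in 31 of the 82 others (37.8%).

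*Dvl2* was the only one of the 4 genes with an element within 1 mismatch of the CLEAR consensus GTCACGTGAC. Such an element was present in 30.7% of all peaks, in 74.2% of the 31 promoter peaks and in 64.9% of the 37 peaks within 1 kb of a TSS. Its presence at *Dvl2* was therefore usual for peaks at gene starts. *Dvl2* had 4 such elements, and none without a mismatch. In the changes given in brackets, the consensus base comes first, then its position in the consensus (1 is the leftmost base as written here) and last the base found. From far to near the TSS, the elements were GTCACGTGAG (C10G), GTAACGTGAC (C3A), GTCACGTGAA (C10A) and GTCACGTGGC (A9G), which ended 116, 87, 69 and 26 bp before the TSS. The element with C3A has no intact core, and the 3 others are the 3 cores in the sequence shown above. The cores followed each other at steps of 47 and 43 bp. With at most 2 mismatches, the *Mtdh* and *Mien1* peaks each had 1 element, and that of *Wee1* still had 0.

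**Figure D3:**
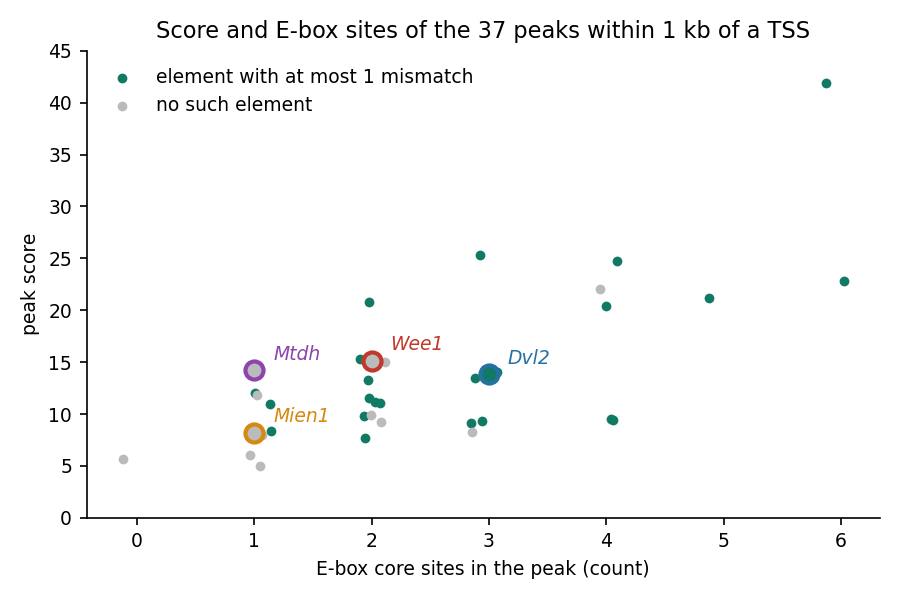
Number of E-box cores (x axis, points spread sideways for sight) and score (y axis) of the 37 peaks centred within 1 kb of a TSS, in green where the peak holds a CLEAR element with at most 1 mismatch and in grey where it does not. The outlined points are the 4 genes, of which *Dvl2* with 3 cores and an element has a lower score than *Wee1* with 2 cores and *Mtdh* with 1 core and no element. *Mien1*, with 1 core and no element, has a lower score than *Dvl2*.

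The number of cores did not order the 4 scores. *Dvl2*, with 3 cores, scored below *Mtdh*, with 1. Among promoter peaks, the median score was 11.4 for the 6 peaks with 1 core (range from 6.02 to 14.25), 11.1 for the 10 with 2 cores (7.7 to 20.75) and 13.95 for the 14 with 3 or more (8.265 to 41.9). *Mtdh* had the highest score of the promoter peaks with 1 core. *Wee1* lay above the median for 2 cores, and *Dvl2* close to the median for 3 or more. Among peaks within 1 kb of a TSS that are not at these genes, 9 had a core but no element within 1 mismatch, with scores from 5.02 to 22 and a median of 9.21, and 1 of them scored higher than *Wee1*. The 23 with an element had a median score of 12.05. *Dvl2* scored above *Mien1*, which has no element, in the direction of these medians, and below *Wee1* and *Mtdh*, in the opposite direction. These values are of a single pooled score and were not tested.

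All 4 genes had a core near the start of the gene itself, from 250 bases before to 50 after the most upstream curated TSS, and 8.07% of 21000 protein-coding genes had one (1695 genes). Of the 40 genes with a peak centred within 1 kb of a TSS, the 4 included, 30 (75%) had one, so a core was common to most gene starts with a DDX5 peak. *Dvl2*, with 3 cores there, was 1 of 24 genes (0.114%) with 3 or more. Of these 24 genes, 9 had a DDX5 peak centred within 1 kb of a TSS (37.5%, 95% Wilson interval from 21.2% to 57.3%). Of the 1533 genes with 1 core, as *Wee1*, *Mtdh* and *Mien1* had in this window, 12 had such a peak (0.783%, from 0.448% to 1.36%). Of the 19305 genes without a core, 10 had one (0.0518%, from 0.0281% to 0.0953%).

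The peaks were set against cyclins, the regulatory subunits of cyclin-dependent kinases, because the study is concerned with how DDX5 acts on the cell cycle of spermatogonia. The paper reports impaired nuclear export of *Ccnd1* and *Ccnd2* mRNA and reduced stability of *Ccnb2* mRNA after *Ddx5* loss. It also states that DDX5 was absent from the *Ccna2* and *Ccnb2* promoters. The reported effects are on RNA, which a list of DNA peaks does not measure. Of the 26 cyclin genes, 0 had an assigned peak, which allows a share of up to 11.5%. Over all protein-coding genes, 88 of 21000, or 0.419%, had one, so 0 of 26 was near the background. The list holds peaks over the authors' threshold in both lines, and weaker binding was not detectable in it. The median distance from a cyclin TSS to the nearest peak centre was 9.19 Mb, against 6.91 Mb over all protein-coding genes. The closest was *Ccnf*, which encodes a substrate receptor of a ubiquitin ligase, at 87.8 kb from the peak of *Amdhd2*. *Ccnc*, a cyclin of the Mediator kinase module, was 0.184 Mb from a peak assigned to *Faxc*.

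The cyclins of the main cell cycle phases were farther from a peak. For the G1 cyclins, the distance was 8.02 Mb for *Ccnd1*, 5.39 Mb for *Ccnd2*, 1.94 Mb for *Ccnd3*, 7.15 Mb for *Ccne1* and 10.7 Mb for *Ccne2*. For the S phase and mitotic cyclins, it was 12.5 Mb for *Ccna1*, 3.98 Mb for *Ccna2*, 55 Mb for *Ccnb1* and 6.76 Mb for *Ccnb2*. The X chromosome, with *Ccnb3*, had no peak. The nearest peak for *Ccng1* and *Ccnjl* was that of *Dvl2*, at 29.2 Mb and 26.5 Mb. The other 12 cyclins, *Ccng2*, *Ccnh*, *Ccni*, *Ccnj*, *Ccnk*, *Ccnl1*, *Ccnl2*, *Ccno*, *Ccnt1*, *Ccnt2*, *Ccny* and *Ccnyl1*, were between 1.62 Mb (*Ccnl1*) and 67.3 Mb (*Ccnt2*) away.

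**Figure D4:**
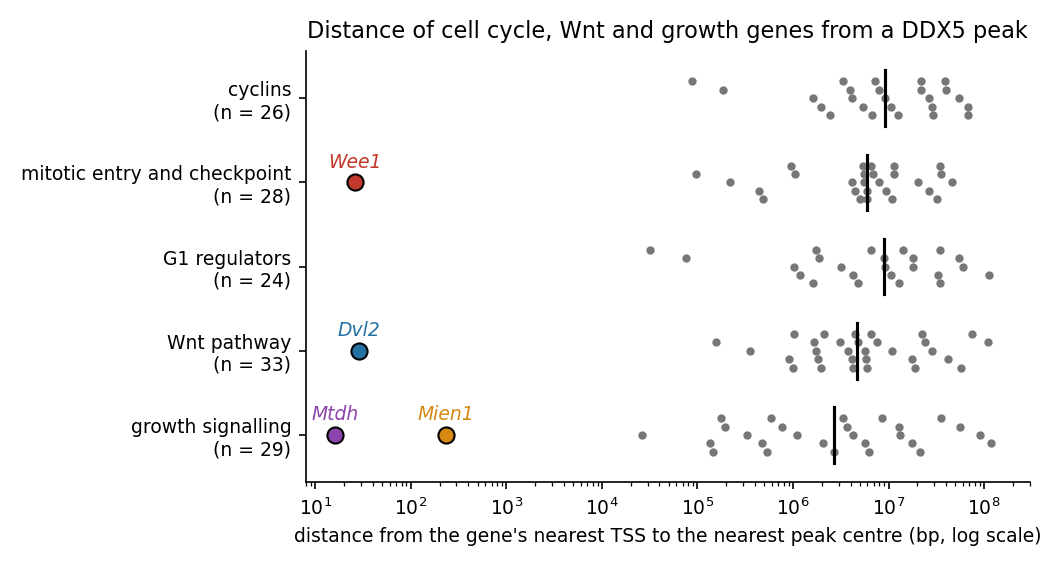
Distance from the nearest TSS of each gene to the nearest DDX5 peak centre on its chromosome (x axis, bp, log scale), by gene list (y axis), with the median as a vertical line. *Wee1*, *Dvl2*, *Mtdh* and *Mien1* lie within 1 kb, and each of the other genes lies beyond 10 kb, with 2 genes on a chromosome without a peak left out.

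*Wee1* was the only one of 28 genes of mitotic entry and its checkpoints with an assigned peak (3.57%). The list was drawn up to hold *Wee1*, so this peak carries no weight against the background of 0.419%. The relatives of *Wee1* had no assigned peak. *Pkmyt1*, the other kinase that inhibits CDK1, was 437 kb from the nearest peak, and *Wee2*, the oocyte form, was 9.29 Mb away. Neither had an E-box core from 1000 bases before to 100 after its start, which was usual, as 18.3% of all protein-coding genes had one there. Of the 24 regulators of G1, 0 had an assigned peak, which allows up to 12.5% and was near the background of 0.419%. By TSS, the closest were *Cks1b* among mitotic genes at 97.5 kb, from the *Efna3* peak, and *Tfdp1* among G1 genes at 31.8 kb, from a peak assigned to *Atp4b*. The *Atp4b* peak was of the exon class and 26186 bp from the *Atp4b* TSS. A peak in the body of a gene but assigned to another gene was not counted for it.

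*Dvl2* was the only one of 33 genes of the Wnt pathway with an assigned peak (3.03%). The other Dishevelled genes had neither a peak nor a core in the wider window. Lacking both was usual, as 18.3% of all protein-coding genes had a core there and 0.419% had an assigned peak. The nearest peak was 156 kb from *Dvl3*, assigned to *Eif4g1*, and 28.8 Mb from *Dvl1*. Among 29 growth signalling genes, *Mtdh* and *Mien1* had an assigned peak (6.9%), and *Erbb2* was the closest of the rest. As the lists were drawn up to hold these 4 genes, their own counts carry no weight against the background of 0.419%.

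E-box cores were present at the starts of genes in each list, mostly without a peak. In the window from 250 bases before to 50 after the start, a core was found in 2 of 26 cyclins (7.69%, 95% Wilson interval from 2.14% to 24.1%), *Ccne2* and *Ccnh*. It was found in 4 of 28 genes of mitotic entry (14.3%), in 4 of 24 G1 regulators (16.7%), in 5 of 33 Wnt genes (15.2%) and in 4 of 29 growth genes (13.8%). In each list the interval includes the 8.07% of all protein-coding genes. This did not hold for cyclins in the wider window from 1000 bases before to 100 after the start, where 9 of 26 had a core (34.6%, 95% Wilson interval from 19.4% to 53.8%) against 18.3% of all protein-coding genes. In all 5 lists, 19 of 140 genes had a core. The 4 of these 19 with a peak are the genes described here, so that count was fixed by how the lists were drawn up. Of the 15 other genes with a core, 0 had an assigned peak. Over all protein-coding genes, 32 of the 1695 genes with a core (1.89%) had one, so 0 of 15 was near the background.

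*Cdk4*, the kinase partner of D-type cyclins, held 4 cores and 2 CLEAR elements with at most 1 mismatch in this window, more cores than *Dvl2*, but the nearest peak was 1.86 Mb away. *Foxm1*, a transcription factor of mitotic genes, had 1 core and 1 such element, and its nearest peak was 6.6 Mb away. Both were named after their values were seen. A core in the promoter was thus shared by the 4 genes with a peak and by these genes without one.

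**Figure D5:**
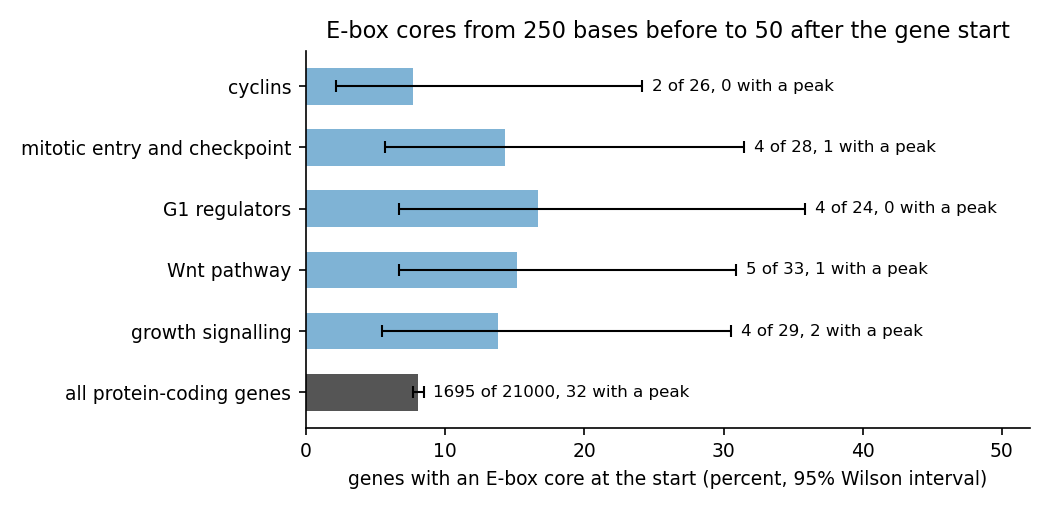
Share of genes with an E-box core from 250 bases before to 50 after the gene start (x axis, percent, with 95% Wilson intervals as error bars) in the 5 gene lists and in all protein-coding genes. The shares of the lists lie between 7.69% and 16.7%, and the label beside each bar gives the number of genes with a core and how many of those had an assigned peak.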

How the data were processed

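Per the labels and the study's methods, the authors mapped single-end reads to mm10 with bowtie2 2.2.5, filtered alignments with SAMtools 1.3.1, called peaks with the histone settings of HOMER and annotated those common to both lines. The deposited peak score is 1 pooled value, and how the libraries were combined is not given in the sources used here. Positions and distances to the TSS are also the authors' values.

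Ranks, overlaps with exons and distances to genes were computed with the RefSeq annotation of GRCm38.p6. Motifs were counted on the reference in Python 3.11.15 with pandas 2.3.3 and pysam 0.24.0, and the counters recovered all motifs placed in simulated data. Shares of 0 are given with the limit of 3 counts. No test was made, as the list has no values per library. The text names the 4 genes, their neighbours by score and position, the cyclins, the families of *Wee1* and *Dvl2*, and the genes of each list with or nearest to a peak. The members, lists and rules were chosen with earlier results of these data known.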

Additional observations from a re-analysis of the deposited data

How the results depend on the processing

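Of 60 alternatives, 35 stayed within 1.5 times a count, rank or distance, or within the interval of a share, 25 moved and 0 reversed. By score per kb, *Mtdh* moved to rank 9 and *Dvl2* to rank 26. The share of the 4 peaks at a promoter was 100% for centres within 1 kb, against 37 of all 101 peaks. It was also 100% for peaks that hold the TSS, with no share over all peaks given. Among peaks with a score of at least 10, 70.4% were promoter peaks and 96.3% held CACGTG. In the central 200 bp, 33.7% of all peaks held it, *Wee1* had 1 core and *Mien1* 0. Counting any CANNTG gave 4 sites for *Mtdh*, 7 for *Dvl2* and 5 for *Mien1*. CLEAR elements with at most 2 mismatches numbered 1 for *Mtdh* and 1 for *Mien1*, and *Dvl2* had 0 without mismatch. The *Dvl2* distance was -28.5 bp in the reference, also with predicted transcripts counted, an alternative chosen after seeing the data. Within 100 kb of a peak lay 1 cyclin (3.85%), 2 mitotic genes (7.14%, *Wee1* included) and 2 G1 regulators (8.33%). Of all protein-coding genes, 335 (1.6%) lay within 100 kb, of which 40 lay within 1 kb. From 1000 bases before to 100 after the start, a core was found in 34.6% of cyclins, 31% of growth genes and 18.3% of all genes.

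No paired analysis was possible because the list gives 1 value for both ChIP libraries. Leaving out each replicate was not run for the same reason. The number of reads behind a score is unknown, so differences between scores have no error.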
